A study of Rattus with 12 samples.

Results

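The 40 genes described here encode enzymes of the tricarboxylic acid (TCA) cycle, the pyruvate dehydrogenase complex and its regulators, mitochondrial fatty acid beta-oxidation, and the transcriptional regulators Ppara and Ppargc1a. They were chosen by symbol for their place in these pathways, with earlier results of these data known. Each was looked up by its gene name in the deposited gene table of 42915 rows. A row was found for 38 of the 40 genes, and 37 of these had been tested by the authors. The genes Idh3b and Ogdh were not analysed here. RNA came from medullary thick ascending limbs picked by hand under a microscope from digested outer medulla of male rats aged 7 weeks and fed 0.4% NaCl, with 1 library per animal. The 6 SS/JrHsdMcwi animals (SS), of the Dahl salt-sensitive line, were compared with 6 SS-Chr 1BN/Mcwi animals (SS.BN1), a consomic line which carries chromosome 1 of the Brown Norway rat on the SS background. All differences over chromosome 1 are exchanged together in this design.

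The thick ascending limb reabsorbs sodium chloride against steep gradients and is packed with mitochondria that supply its ATP. Pyruvate enters the TCA cycle as acetyl-CoA through the pyruvate dehydrogenase complex, which kinases (Pdk) switch off by phosphorylation and phosphatases (Pdp) switch on again. Long-chain fatty acids enter mitochondria as carnitine esters, are shortened by cycles of dehydrogenation, hydration, oxidation and thiolysis, and pass electrons through the electron transfer flavoprotein to ubiquinone. PPAR-alpha (Ppara) and the coactivator PGC-1-alpha (Ppargc1a) are textbook transcriptional activators of the fatty acid oxidation enzymes.

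Libraries held 52.8 ± 3.69 M reads in SS and 52.0 ± 5.68 M reads in SS.BN1 (SD, n = 6 each; exact permutation p = 0.784, two-sided). Mapped reads made up 85.9 ± 0.339% in SS and 85.3 ± 0.522% in SS.BN1 (SD, n = 6 each; exact permutation p = 0.0649, two-sided, adjusted p = 0.130 over 2 measures). The unadjusted exact permutation p for mapped reads was 0.039, 0.0433 or 0.0216 without SS replicate 5, SS.BN1 replicate 4 or SS.BN1 replicate 5. Over the 12 single omissions it ran from 0.0216 to 0.121 by the same test. Expression is given as FPKM, a level per transcript length and sequencing depth, with 1 authors' value per strain and gene, so the levels below carry no error between animals. A gene is called changed where the authors' q, their p-value adjusted over all tested genes, is under 0.05. All 12 thick ascending limb markers were present and none was called, with a sum of 15292 FPKM in SS and 13374 FPKM in SS.BN1. They ran from 34.0 FPKM in SS and 34.8 FPKM in SS.BN1 for Bsnd to 10174 FPKM in SS and 8492 FPKM in SS.BN1 for Umod. Some markers of other cells stood above the lowest of these. The leukocyte marker Cd74 had 358 FPKM in SS and 349 FPKM in SS.BN1. The proximal tubule marker Kap had 290 FPKM in SS and 120 FPKM in SS.BN1. Markers of the proximal tubule summed to 761 FPKM in SS and 332 FPKM in SS.BN1. In such bulk samples, fewer cells of a type and less RNA per cell cannot be told apart.

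The pathway genes were abundant, and most had close listed levels in the 2 strains. In the authors' deposited table, 1 of the 37 tested genes was called, against a background of 3.42% of all 13253 tested genes (453 genes, with 3.32% called upward in SS and 0.0981% downward in SS). The count of 1 was thus near the background share and is not read as a trait of the set. At q under 0.01 the count was 0 of 37 (background 2.22%), at q under 0.10 it was 1 (4.07%) and at an unadjusted p under 0.05 it was 1 (7.55%). All 37 had a mean level of at least 5 FPKM, and among all genes at that level 3.76% were called. The called gene was Pdp1, a catalytic subunit of pyruvate dehydrogenase phosphatase, which was higher in SS. The other 36 had unadjusted p between 0.159 and 0.992 and q = 1.00 in the authors' deposited table. The median level of the 37 genes was 92.8 FPKM in SS and 93.0 FPKM in SS.BN1, against 9.73 FPKM in SS and 9.44 FPKM in SS.BN1 for all tested genes. In SS 27 of the 37, and in SS.BN1 also 27, lay in the top 10% of tested genes by level. Summed over the 38 genes with a row, the set took 4429 FPKM in SS and 4300 FPKM in SS.BN1, or 1.08% and 1.14% of all FPKM outside the mitochondrial chromosome in SS and SS.BN1.

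**Figure D1:**
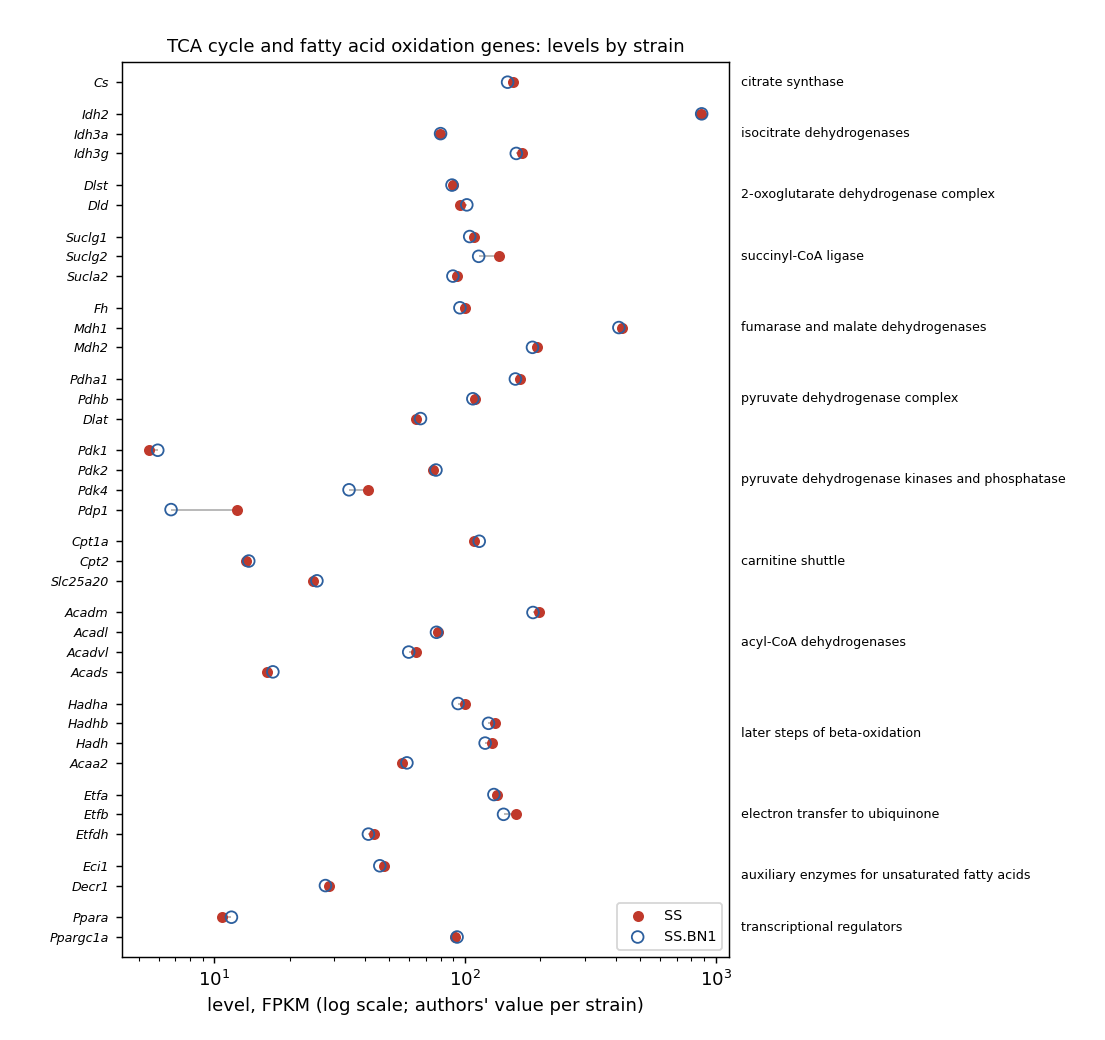
Level of each tested gene in FPKM (log axis, 1 authors' value per strain) in SS (filled red points) and SS.BN1 (open blue points), grouped by pathway step. The points of most genes lie on or beside each other, from Pdk1 at 5.50 FPKM in SS and 5.95 FPKM in SS.BN1 to Idh2 at 878 FPKM in SS and 880 FPKM in SS.BN1, and Pdp1 has the widest gap.

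The enzymes of the cycle itself were described first. Citrate synthase (Cs), which joins acetyl-CoA to oxaloacetate, had 155 FPKM in SS and 148 FPKM in SS.BN1. Idh2, the NADP-dependent mitochondrial isocitrate dehydrogenase, was the most abundant gene of the set with 878 FPKM in SS and 880 FPKM in SS.BN1, and it ranked 43 among the tested genes in SS. The NAD-dependent isocitrate dehydrogenase that drives the cycle forward was lower in level than Idh2, with its catalytic subunit Idh3a at 79.5 FPKM in SS and 80.0 FPKM in SS.BN1. Its regulatory subunit Idh3g had 168 FPKM in SS and 160 FPKM in SS.BN1. None of these 4 genes differed between strains by more than 0.07 on the log2 scale.

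In the next steps, Dlst, the succinyltransferase of the 2-oxoglutarate dehydrogenase complex, had 89.9 FPKM in SS and 88.8 FPKM in SS.BN1. Dld, the dihydrolipoamide dehydrogenase shared by this complex and the pyruvate dehydrogenase complex, had 95.5 FPKM in SS and 102 FPKM in SS.BN1. Succinyl-CoA ligase makes GTP or ATP directly, depending on which beta subunit joins the common alpha subunit Suclg1. Suclg1 had 109 FPKM in SS and 104 FPKM in SS.BN1, and the ATP-forming beta subunit Sucla2 had 92.8 FPKM in SS and 89.6 FPKM in SS.BN1. The GTP-forming beta subunit Suclg2, with 137 FPKM in SS and 113 FPKM in SS.BN1, had the lowest p among the genes not called (log2 ratio 0.27, unadjusted p = 0.159 in the authors' deposited table). Fumarase (Fh) had 99.8 FPKM in SS and 95.5 FPKM in SS.BN1. Cytosolic malate dehydrogenase (Mdh1), part of the malate-aspartate shuttle, was the second most abundant gene of the set with 425 FPKM in SS and 411 FPKM in SS.BN1. Mitochondrial malate dehydrogenase (Mdh2) had 193 FPKM in SS and 186 FPKM in SS.BN1. The 3 genes of succinyl-CoA ligase and the 3 genes of fumarase and the malate dehydrogenases were thus listed slightly higher in SS, and none passed the test. The direction depended on scaling. After rescaling to equal FPKM outside the mitochondrial chromosome, only Suclg2 among them stayed higher in SS (log2 ratio 0.155).

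The pyruvate dehydrogenase complex converts pyruvate to acetyl-CoA. Its E1 alpha subunit Pdha1, the protein that the kinases phosphorylate, had 166 FPKM in SS and 159 FPKM in SS.BN1. The E1 beta subunit Pdhb had 109 FPKM in SS and 108 FPKM in SS.BN1, and the E2 acetyltransferase Dlat had 63.5 FPKM in SS and 66.5 FPKM in SS.BN1. The proportions of the subunits were close in the strains, with 1.51 times as much Pdha1 as Pdhb in SS and 1.48 times in SS.BN1. Summed over the 3 subunits, the complex had 339 FPKM in SS and 333 FPKM in SS.BN1.

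Among the kinases, Pdk2 had the highest level, with 74.5 FPKM in SS and 76.6 FPKM in SS.BN1. Pdk4, the kinase known for its induction by fasting and by PPAR-alpha agonists, had 41.0 FPKM in SS and 34.5 FPKM in SS.BN1 and was not called (log2 ratio 0.25, unadjusted p = 0.342 in the authors' deposited table). Pdk1, the kinase known for its induction by hypoxia, had 5.50 FPKM in SS and 5.95 FPKM in SS.BN1. Pdk2 stood at 13.6 times the level of Pdk1 in SS and 12.9 times in SS.BN1. Pdk2 stood at 1.82 times the level of Pdk4 in SS and 2.22 times in SS.BN1.

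Pdp1 had 12.3 FPKM in SS and 6.72 FPKM in SS.BN1, 1.83-fold higher in SS (log2 ratio 0.87, unadjusted p = 0.00105, q = 0.0344 in the authors' deposited table). The 95% interval implied by the authors' score and p runs from 1.27-fold to 2.64-fold. The gene lies on chromosome 5 at 25577451 to 25584288 in the deposited coordinates, outside the exchanged chromosome. Its partner Pdp2, the second catalytic phosphatase subunit and not one of the 40 genes, had 10.2 FPKM in SS and 5.72 FPKM in SS.BN1 and fell just outside the threshold (log2 ratio 0.83, unadjusted p = 0.00195, q = 0.0557 in the authors' deposited table). The regulatory phosphatase subunit Pdpr had 15.2 FPKM in SS and 16.7 FPKM in SS.BN1, and the kinase Pdk3 had 17.8 FPKM in SS and 16.8 FPKM in SS.BN1, neither called.

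Summed over Pdp1 and Pdp2, the phosphatases had 22.5 FPKM in SS and 12.4 FPKM in SS.BN1, while the kinases Pdk1 to Pdk4 summed to 138.9 FPKM in SS and 133.9 FPKM in SS.BN1. The summed kinase level was 6.17 times the summed phosphatase level in SS and 10.8 times in SS.BN1. These sums were formed after the values of Pdp1 and Pdp2 had been seen, and no test goes with them. In the same libraries, 17 of 17 tested proximal tubule markers were listed higher in SS, against 50.3% of all tested genes. Their median log2 ratio was 1.27, and 11 were called higher in SS (background 3.32%). The marker lists were drawn up with earlier results of these data known, so no conclusion is drawn from the shares called or listed higher. None of the 24 markers with a row was listed at 0. The lowest in SS was Slc5a12, which was not tested and went the other way, with 0.0328 FPKM in SS and 0.0906 FPKM in SS.BN1. The lowest in SS.BN1 was Slc6a19, also not tested, with 0.0320 FPKM, against 0.0854 FPKM in SS. The part of proximal tubule cells in the Pdp1 result was not tested.

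**Figure D2:**
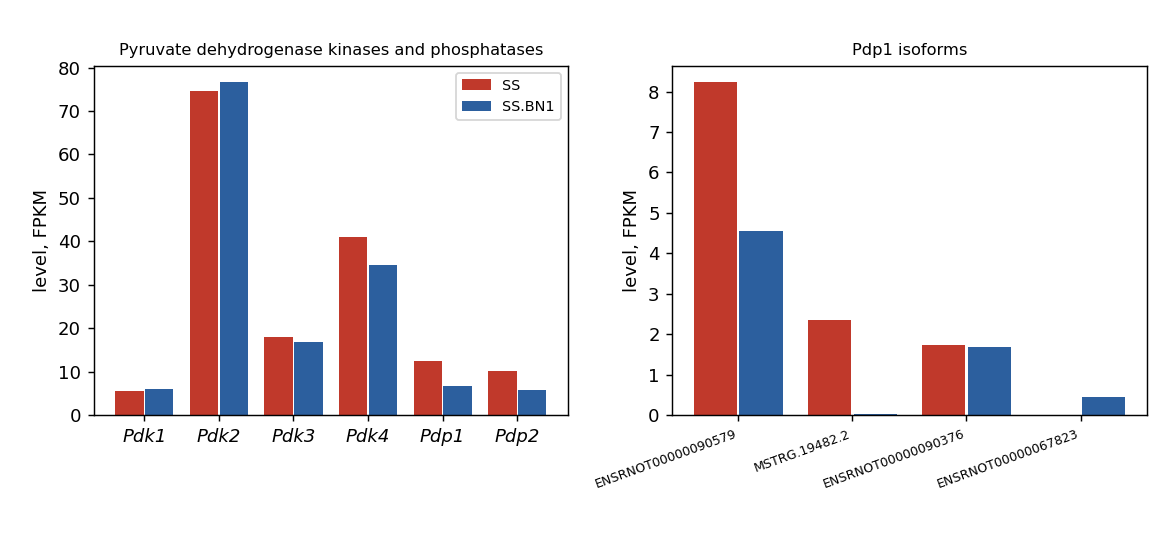
Left, level in FPKM of the 4 pyruvate dehydrogenase kinases and the 2 catalytic phosphatase subunits in SS (red) and SS.BN1 (blue), 1 authors' value per strain. Right, level in FPKM of the 4 isoforms listed for Pdp1; the unannotated isoform reaches 2.35 FPKM in SS and 0.0200 FPKM in SS.BN1, and no isoform was called.

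The isoform table gave 81 isoforms for the 38 genes, of which 63 were tested, and none was called in the authors' deposited table (0 also at an unadjusted p under 0.05), against 1.05% of all 23688 tested isoforms. The most abundant isoform was the same in both strains for 38 of 38 genes. Pdp1 was the only gene of the set in which an isoform's share of the gene's level differed by more than 10 percentage points between strains. Its leading isoform ENSRNOT00000090579 had 8.23 FPKM in SS and 4.56 FPKM in SS.BN1, which is 66.9% of the gene's level in SS and 67.8% in SS.BN1 (unadjusted p = 0.0888 in the authors' deposited table). An isoform with no annotated name made up 19.1% of Pdp1 in SS, at 2.35 FPKM, and 0.297% in SS.BN1, at 0.0200 FPKM (unadjusted p = 0.147 in the authors' deposited table). A further isoform, ENSRNOT00000090376, had nearly equal levels of 1.73 FPKM in SS and 1.69 FPKM in SS.BN1. The fourth, ENSRNOT00000067823, went the other way with 0.000472 FPKM in SS and 0.452 FPKM in SS.BN1, or 0.00383% of the gene in SS and 6.73% in SS.BN1, and was not tested. The leading isoform and the unannotated one had the higher values in SS, and neither alone passed the test.

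The widest shift of a leading isoform outside Pdp1 belonged to Pdk4. Its isoform ENSRNOT00000012760 had 21.2 FPKM in SS and 14.96 FPKM in SS.BN1, or 51.6% of the gene in SS and 43.4% in SS.BN1 (unadjusted p = 0.321 in the authors' deposited table). Of the 81 isoforms, 34 have no annotated name, and 3 genes are led by one of these. The leading isoform of citrate synthase is such a case, with 83.0 FPKM in SS and 80.0 FPKM in SS.BN1, above the annotated ENSRNOT00000033726 with 71.1 FPKM in SS and 66.6 FPKM in SS.BN1.

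Fatty acid oxidation begins with the carnitine shuttle. Cpt1a, which forms acylcarnitine at the outer membrane and is the step inhibited by malonyl-CoA, had 108 FPKM in SS and 114 FPKM in SS.BN1. The carnitine-acylcarnitine carrier Slc25a20 had 24.8 FPKM in SS and 25.7 FPKM in SS.BN1. Cpt2, which returns the acyl group to CoA in the matrix, had 13.4 FPKM in SS and 13.7 FPKM in SS.BN1. All 3 were listed slightly lower in SS and none passed the test. Cpt1a was thus listed at several times the level of the inner-membrane and matrix parts of the shuttle in both strains. An isoform with no annotated name made up 46.4% of Cpt1a in SS and 44.7% in SS.BN1. Whether the levels of these genes differ beyond animal spread was not analysed here.

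The acyl-CoA dehydrogenases start each round of beta-oxidation and differ in the chain length they accept. Acadm, for medium chains, had 197 FPKM in SS and 187 FPKM in SS.BN1, and Acadl, for long chains, had 78.3 FPKM in SS and 77.0 FPKM in SS.BN1. The very-long-chain enzyme Acadvl had 63.6 FPKM in SS and 59.7 FPKM in SS.BN1, and the short-chain enzyme Acads had 16.2 FPKM in SS and 17.1 FPKM in SS.BN1. The order of the levels, with medium chains first and short chains last, was the same in both strains, and whether neighbours in it differ beyond animal spread was not analysed here.

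The later steps of each round showed the same picture. The mitochondrial trifunctional protein carries out hydration, oxidation and thiolysis of long chains, and its alpha subunit Hadha had 99.7 FPKM in SS and 93.9 FPKM in SS.BN1. Its beta subunit Hadhb had 132 FPKM in SS and 124 FPKM in SS.BN1. The ratio of beta to alpha subunit was 1.33 in SS and 1.32 in SS.BN1; the genes were assembled into 1 locus on chromosome 6, so reads could be split between them. For shorter chains, the hydroxyacyl-CoA dehydrogenase Hadh had 128 FPKM in SS and 120 FPKM in SS.BN1, and the thiolase Acaa2 had 55.9 FPKM in SS and 58.7 FPKM in SS.BN1.

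Echs1, the short-chain enoyl-CoA hydratase, was listed with the same 0.0407 FPKM for both strains and was not tested by the authors. The row was placed in the same locus as Idh2, Zfp710 and Fuom on chromosome 1, at 141766448 to 141893705 in the deposited coordinates. In the RefSeq gene order of chromosome 1 in the GRCr8 assembly, Echs1 is protein-coding gene 2290 and Fuom is 2289, far from Idh2 at 1470 and Zfp710 at 1469. Identical values above 0 in both strains were found in 967 rows of the gene table. The row is not read here as the level of Echs1 and is left out of every count of tested genes.

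Electrons from the acyl-CoA dehydrogenases pass to the electron transfer flavoprotein. Its alpha subunit Etfa had 135 FPKM in SS and 131 FPKM in SS.BN1, and its beta subunit Etfb had 161 FPKM in SS and 143 FPKM in SS.BN1 (log2 ratio 0.17, unadjusted p = 0.356 in the authors' deposited table). The dehydrogenase Etfdh, which hands the electrons to ubiquinone, had 43.2 FPKM in SS and 41.2 FPKM in SS.BN1. The auxiliary enzymes for unsaturated chains, the isomerase Eci1 with 47.6 FPKM in SS and 45.8 FPKM in SS.BN1 and the reductase Decr1 with 28.6 FPKM in SS and 27.8 FPKM in SS.BN1, were not called either.

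Neither transcriptional regulator of the set was called. Ppara had 10.8 FPKM in SS and 11.7 FPKM in SS.BN1 (log2 ratio -0.12, unadjusted p = 0.591 in the authors' deposited table). The coactivator Ppargc1a was far more abundant, with 91.4 FPKM in SS and 93.0 FPKM in SS.BN1 (log2 ratio -0.03, unadjusted p = 0.912 in the authors' deposited table).

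Since a p that misses the threshold does not show equality, the precision of each ratio was read from the authors' own score and p. The implied standard error of a log2 ratio had a median of 0.19 over the 37 genes and a range of 0.19 to 0.33. The 95% intervals of the 36 genes not called reached from 0.593-fold for Pdk1 to 1.70-fold for Pdk4, so each lies within a 2-fold difference in either direction. Of the 37 intervals, 33 lay within 1.58-fold, the smallest fold that the authors' test called for any gene. The sources used here do not say how far the authors' error reflects differences between animals.

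**Figure D3:**
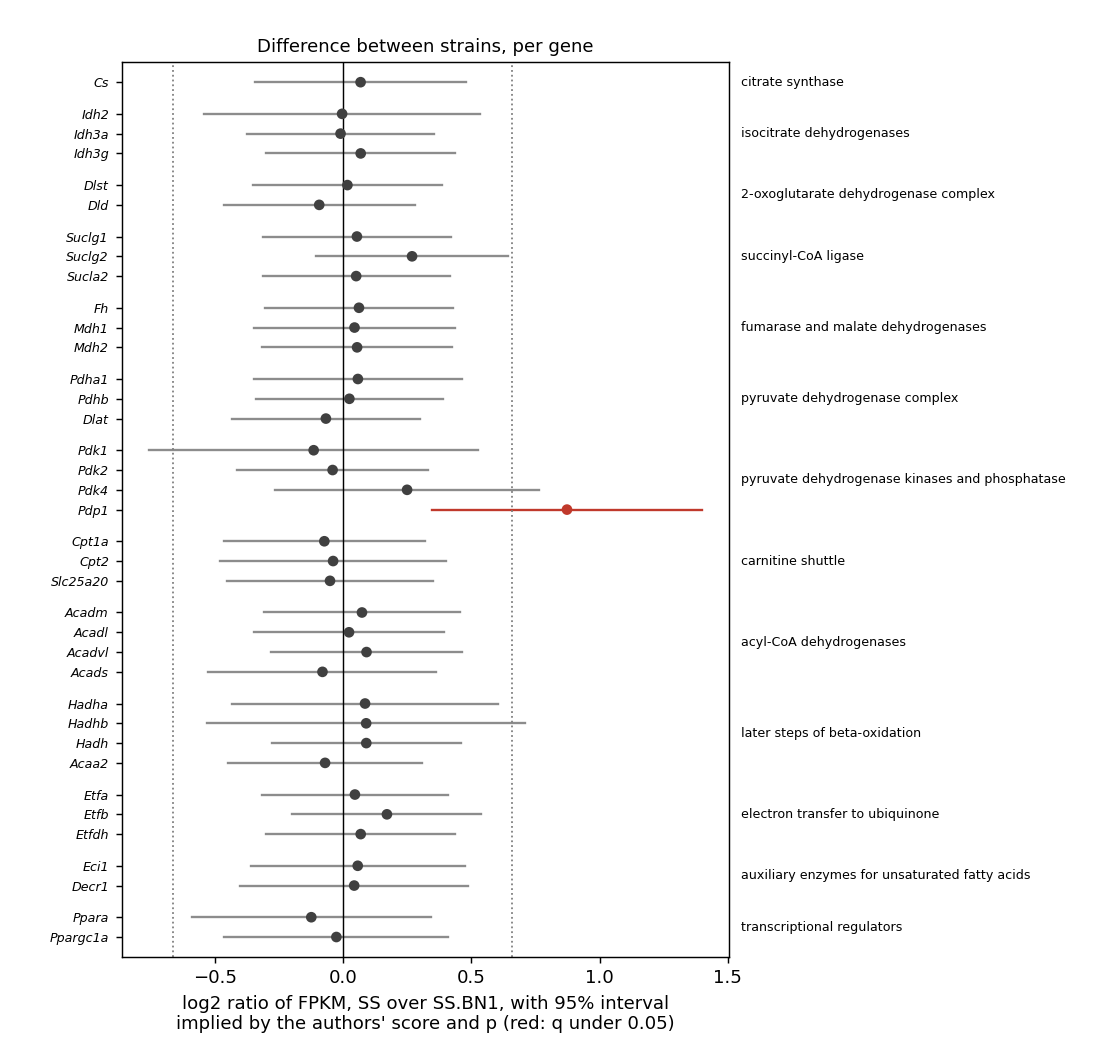
Log2 ratio of FPKM, SS over SS.BN1, for each tested gene (point) with the 95% interval implied by the authors' score and p (line); the solid line marks no difference and the dotted lines the smallest called difference, 1.58-fold, in either direction. All intervals cover 0 except that of Pdp1 (red), which runs from 0.35 to 1.40.

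The ratios of the set were also packed closely. Their median was 0.05 on the log2 scale, with an interquartile range of 0.11 and extremes of -0.12 for Ppara and 0.87 for Pdp1, against a median of 0.0011 and an interquartile range of 0.25 over 13250 tested genes with both values above 0. Within 0.15 of no difference lay 33 of the 37 genes (89.2%), against 57.3% of all tested genes and 67.1% of the 9064 tested genes with a mean level of at least 5 FPKM. The 4 genes outside were Pdp1, Suclg2, Pdk4 and Etfb. A closer packing goes with higher levels in the whole table, and the set is abundant, so the closeness was not tested as a property of the pathway. In SS 24 of the 37 were listed higher, against 50.3% of all tested genes. Rescaling to equal FPKM outside the mitochondrial chromosome lowers every log2 ratio by the same amount, and after it 4 of 37 and 28.0% of all tested genes were higher in SS, with 24 of 37 still above the median of all tested genes. After quantile normalization 4 of 37 and 33.9% of all tested genes were higher in SS, and 16 of 37 lay above the median of all tested genes.

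**Figure D4:**
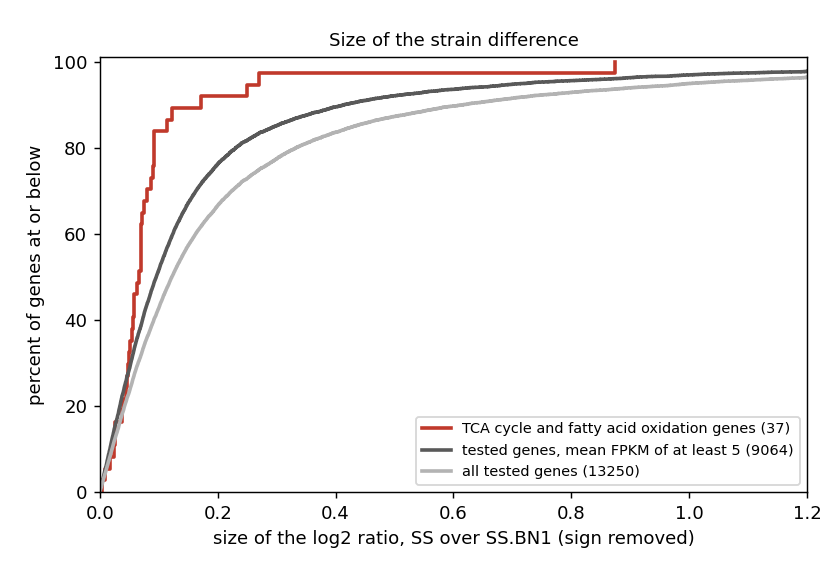
Cumulative percent of genes (y axis) whose log2 ratio of SS over SS.BN1, sign removed, is at or below the value on the x axis, for the 37 pathway genes (red), the 9064 tested genes with a mean level of at least 5 FPKM (dark grey) and all 13250 tested genes with both values above 0 (light grey). At 0.15 the curves stand at 89.2%, 67.1% and 57.3%.

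Chromosome 1, which differs between the strains by design, holds 4 of the 38 genes as deposited. Idh2 had a log2 ratio of -0.0029, and its deposited span (141766448 to 141893705) is that of the locus shared with Zfp710, Echs1 and Fuom. Cpt1a (218567372 to 218629678) had a log2 ratio of -0.07 and Etfb (98472745 to 98486976) of 0.17. None of these 3 was called, and the fourth gene is the untested Echs1 row. The median of the 3 tested genes was -0.0029 on the log2 scale, against 0.05 for the 34 tested genes on other chromosomes.

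Other genes of the same pathways were called about as often as all tested genes. Of 36 other tested genes of the cycle and of pyruvate metabolism, 1 was called (background 3.42%) and 3 had an unadjusted p under 0.05 (background 7.55%), with a median log2 ratio of 0.04, in the authors' deposited table. The most abundant was Mpc1, a subunit of the mitochondrial pyruvate carrier, with 879 FPKM in SS and 883 FPKM in SS.BN1. It was followed by the succinate dehydrogenase subunits Sdhc, with 321 FPKM in SS and 309 FPKM in SS.BN1, and Sdha, with 287 FPKM in SS and 265 FPKM in SS.BN1. The called gene was Pck1, the gluconeogenic phosphoenolpyruvate carboxykinase, with 4.60 FPKM in SS and 1.79 FPKM in SS.BN1 (log2 ratio 1.36, q = 0.0140 in the authors' deposited table). Pck1 also stands in the list of proximal tubule markers, which were higher in SS as given above. The other genes under the unadjusted threshold were Pdp2 and malic enzyme Me1, the cytosolic enzyme that makes NADPH, with 10.1 FPKM in SS and 6.76 FPKM in SS.BN1, and it was not called (q = 0.580 in the authors' deposited table).

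Of 39 other tested genes of fatty acid oxidation, 1 was called and 2 had an unadjusted p under 0.05, near the same background shares, with a median log2 ratio of 0.03, in the authors' deposited table. The most abundant were Oxct1, which activates ketone bodies for oxidation, with 476 FPKM in SS and 441 FPKM in SS.BN1, the fatty acid binding protein Fabp3, with 281 FPKM in SS and 292 FPKM in SS.BN1, and the thiolase Acat1, with 207 FPKM in SS and 200 FPKM in SS.BN1. The called gene was Slc27a2, a fatty acid transporter and very-long-chain acyl-CoA synthetase, with 3.75 FPKM in SS and 1.27 FPKM in SS.BN1 (log2 ratio 1.56, q = 0.0454 in the authors' deposited table). The summed proximal tubule markers moved the same way, and their part in this result was not tested. Acsl4, which activates arachidonic acid, had 24.9 FPKM in SS and 17.0 FPKM in SS.BN1 and was not called (q = 0.132 in the authors' deposited table). Acsl4 was picked out after its values had been seen.

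Of 21 nuclear receptors, coactivators and related regulators outside the set, 1 was called (background 3.42%) and 3 had an unadjusted p under 0.05 (background 7.55%), with a median log2 ratio of 0.04, in the authors' deposited table. The called gene was Ppard, the PPAR-delta receptor, with 16.9 FPKM in SS and 9.05 FPKM in SS.BN1 (log2 ratio 0.90, q = 0.0124 in the authors' deposited table). The other genes under the unadjusted threshold were the PGC-1-related coactivator Pprc1, with 7.99 FPKM in SS and 5.29 FPKM in SS.BN1, and Hnf4a, which also stands in the proximal tubule list, with 2.53 FPKM in SS and 1.34 FPKM in SS.BN1. The proximal tubule markers were higher in SS as Ppard was, and their part in this result was not tested. The most abundant regulators were the oestrogen-related receptor Esrrg, with 94.2 FPKM in SS and 104 FPKM in SS.BN1, the joined row that holds Esrra, with 51.7 FPKM in SS and 50.9 FPKM in SS.BN1, and the corepressor Ncor1, with 46.3 FPKM in SS and 44.9 FPKM in SS.BN1.

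Higher ratios were found among lipid-responsive genes known as PPAR-alpha targets outside the oxidation enzymes. Of 8 tested rows, 4 were called, all higher in SS (background 3.32% called upward in SS), with a median log2 ratio of 0.96 in the authors' deposited table. This list was drawn up with earlier results of these data known, so no conclusion is drawn from its share called. Angptl4, a secreted inhibitor of lipoprotein lipase, had 65.7 FPKM in SS and 13.4 FPKM in SS.BN1 (log2 ratio 2.30, q = 0.00266 in the authors' deposited table). Plin2, a coat protein of lipid droplets, had 22.3 FPKM in SS and 11.0 FPKM in SS.BN1 (log2 ratio 1.01, q = 0.00266 in the authors' deposited table). The fatty acid hydroxylases were called too, with 47.0 FPKM in SS and 11.7 FPKM in SS.BN1 for the joined row of Cyp4a2 and Cyp4a3, which cannot be told apart there, and 10.2 FPKM in SS and 4.37 FPKM in SS.BN1 for Cyp4a8. The acyl-CoA thioesterase Acot2 had 12.7 FPKM in SS and 6.76 FPKM in SS.BN1 and was not called (in the authors' deposited table, unadjusted p = 0.00675, q = 0.148). The other rows not called were Vnn1 with a log2 ratio of 0.67, the joined row that holds Acot1 with 0.12, and the mitochondrial carrier Ucp2 with -0.23, at 30.1 FPKM in SS and 35.4 FPKM in SS.BN1. Within the same biology, Pdk4, Cpt1a and Acadm are also known PPAR-alpha targets, and their log2 ratios were 0.25, -0.07 and 0.07, none called. Beside these calls stand the proximal tubule markers, with Slc34a1 at 8.14 FPKM in SS and 3.40 FPKM in SS.BN1 and Lrp2 at 7.86 FPKM in SS and 2.83 FPKM in SS.BN1, both called, and their part in the result was not tested.

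**Figure D5:**
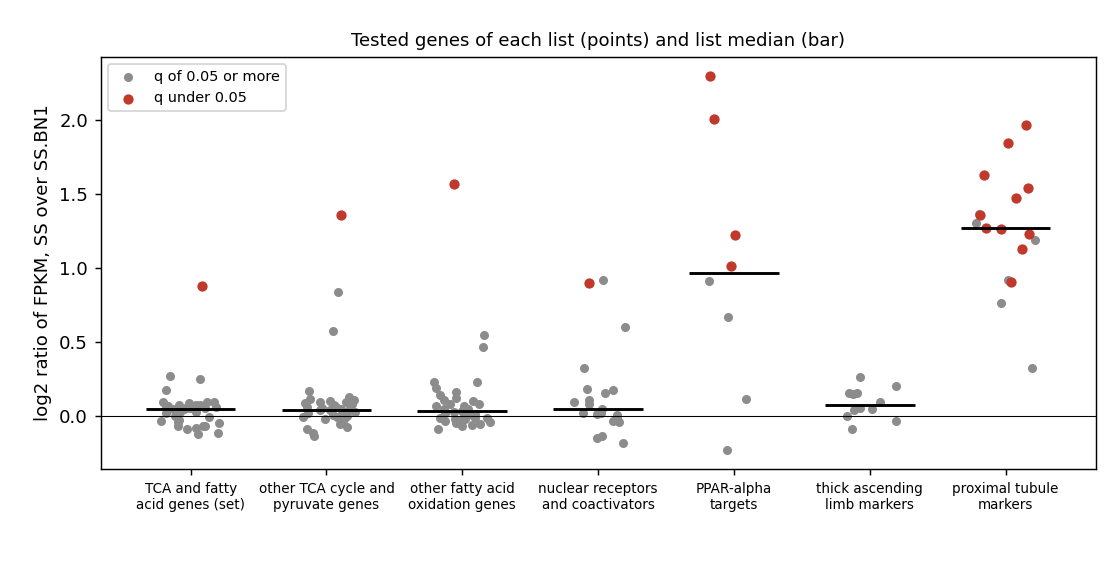
Log2 ratio of FPKM, SS over SS.BN1, of each tested row (points; red where the authors' q is under 0.05) in 7 gene lists, with the list median as a bar; the sideways spread within a list has no meaning. Medians are 0.05 for the 37 pathway genes, 0.04 and 0.03 for the other genes of the same pathways, 0.96 for the PPAR-alpha targets, 0.07 for the thick ascending limb markers and 1.27 for the proximal tubule markers.

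Markers of other cell types were also compared. Principal cell markers summed to 229 FPKM in SS and 287 FPKM in SS.BN1. Of 6 tested, 1 was called (background 0.0981% called downward in SS) and 1 was listed higher in SS. The called gene was the water channel Aqp2, lower in SS at 48.1 FPKM, against 78.3 FPKM in SS.BN1. Endothelial markers summed to 84.3 FPKM in SS and 122 FPKM in SS.BN1. Of 6 tested, 1 was called (the same background), the angiopoietin receptor Tek, lower in SS at 6.78 FPKM, against 11.6 FPKM in SS.BN1. Cdh5, with 6.56 FPKM in SS and 6.22 FPKM in SS.BN1, was listed higher in SS. So was Flt1, with 8.36 FPKM in SS and 7.88 FPKM in SS.BN1. No marker was called for intercalated cells (4 tested), leukocytes (5 tested) or fibroblasts and smooth muscle (5 tested), against 3.42% of all tested genes. In the authors' deposited table, 1, 1 and 2 of them had an unadjusted p under 0.05 (background 7.55%).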

How the data were processed

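Per the submitters' processing notes, rn5 is named as a build and the tools are Cufflinks 2.2.1, StringTie, TopHat2 2.1.1, FastQC and cutadapt, whose roles are not stated. The deposited gene and isoform tables hold 1 FPKM per strain, with a p-value, a q-value and a test score of the authors for each row, per the file headers. The way in which 6 libraries became 1 value, and the settings, are not given in the sources used here. A further deposited table gives the count of reads and the percent of reads mapped for each library.

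Genes were matched by symbol in the gene name, split at commas. Of the 40 chosen genes, 38 had a row. All 38 of these were found by symbol in a RefSeq gene table (GRCr8), used for names and gene order only, and genes without a row were not looked up there. Coordinates are as deposited, with 1 added to starts; the build was not settled. A gene was called where the authors had tested it and their q was under 0.05. Log2 ratios, SS over SS.BN1, were computed from the FPKM with no pseudocount. Since the tables hold no value per library, no model was fitted and no SD or n goes with a ratio. Over 10501 rows with p between 0.001 and 0.9, the normal deviate of the authors' p was 2.46 times their score (quartiles 2.41 and 2.50). Standard errors and 95% intervals were derived from that factor, and the p recomputed from it differed from the deposited p by at most 0.0124 in the 37 tested genes.

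Strain means of the library measures were compared by exact permutation, two-sided, over all 924 assignments, whose smallest p is 0.00216. The 12 animals do not pair across strains. The genes and the lists were chosen with earlier results of these data known. All 40 genes were described; of the other pathway lists, called genes and up to 3 with the highest level were named, and genes named beyond that were chosen after their values were seen. Alternatives covered filters, thresholds, scaling, pseudocounts, the isoform table and leaving out each library. Planned counts of promoter motifs and comparisons of protein sequences were not run. Scripts ran under Python 3.11.15 with SciPy 1.17.1, pandas 2.3.3, NumPy 2.4.6 and matplotlib 3.10.9.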

Additional observations from a re-analysis of the deposited data

How the results depend on the processing

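The number of called pathway genes was 1 with a mean level of at least 1 or 5 FPKM, without joined rows, at q under 0.10 and at an unadjusted p under 0.05. It was 0 at q under 0.01, where the q of Pdp1 (0.0344) lies above the threshold, and 0 in the isoform table, where the level of Pdp1 is divided among isoforms. The median log2 ratio of the 37 genes was 0.05 under both pseudocounts, median centring, summed isoforms and each filter. It was -0.0676 after rescaling to equal FPKM outside the mitochondrial chromosome, where the median of all tested genes was -0.11. It was -0.0813 after quantile normalization, where the median of all tested genes was -0.07 and 16 of 37 genes stood above it. The log2 ratio of Pdp1 lay between 0.76 and 0.87 over these settings. Across 6 scale alternatives, 222 of 222 ratios of single genes moved by less than their implied standard error.

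Leaving out each library in turn, the strain difference in M reads ran from -1.18 to 2.32, and the difference of medians was -0.73 (exact permutation p = 0.727). The difference in percent mapped ran from 0.37 to 0.67 points, with p from 0.0216 to 0.121 by the exact permutation test. No paired analysis was possible because the labels give no number or litter shared between strains, and the expression tables hold 1 value per strain. The smallest fold called for any gene of the whole table was 1.58, an observed minimum and not a computed limit of detection.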
